A study of Mus musculus with 30 samples.

Results

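Fragments of the mitochondrial tRNA for histidine, the transcript mt-Th (ENSMUST00000082415.1, gene ENSMUSG00000064364.1), were read from all 30 libraries of mouse cortex small RNA. A fragment was counted where its whole sequence of 15 to 45 nt matched, in the sense direction and without a mismatch, the GENCODE M21 transcript of mt-Th with the tail CCA added. Of 1271 such sequences that are possible, 1036 were found, 960 of them in PANDORA-seq and 845 in traditional-seq, and 97 were present in every library. The gene is 1 of 22 mitochondrial tRNA genes, and it was chosen by the calls of its fragments in the PANDORA-seq contrast of genotypes, in which they were lower in AD mice. The PANDORA-seq values of both genotypes are therefore given below as a description without p-values, and the counts of its calls there only show what the choice rests on.

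The AD mice were hemizygous 5xFAD transgenics, in which mutated human amyloid precursor protein and presenilin 1 are driven mainly in neurons by the Thy1 promoter, and the WT mice were littermates without the transgenes. Both genotypes were on a C57BL/6J background, were 6 months old and included both sexes, and the sex of each library was not used here. All libraries were made from gel-excised small RNA with the same adapter ligation kit, after no enzyme treatment in traditional-seq (7 WT and 7 AD libraries) and after treatment with AlkB and T4PNK in PANDORA-seq (8 WT and 8 AD libraries). T4PNK repairs RNA ends so that adapters can join them, and AlkB removes some methyl groups from RNA bases.

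Mitochondrial tRNAs are cut out of long transcripts of the mitochondrial genome, and the tail CCA is added to them afterwards, where the amino acid is attached. The tRNA for histidine differs from other tRNAs by an extra G in front of its first base, which the enzyme that loads histidine recognizes. Many mitochondrial tRNAs also carry a methylated base at position 9, which can stop reverse transcription or make it insert another base.

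In GRCm38 the transcript lies at chrM:11546-11612 on the plus strand and is 67 nt long, or 70 nt with CCA. Upstream the protein-coding gene mt-Nd4 ends at 11544, with 1 base between the transcripts, and downstream the tRNA gene mt-Ts2 starts at 11613. The sequence with CCA is shown first because all positions below count from its 5′ end, and the anticodon loop, positions 28 to 34, is in capitals.
mt-Th with CCA: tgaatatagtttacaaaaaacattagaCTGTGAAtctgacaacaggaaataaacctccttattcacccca
With 1 G placed in front of position 1, the start of the transcript formed 7 consecutive Watson-Crick pairs with its 3′ part when the last base before CCA was left unpaired, as in an acceptor stem. Position 1 of the transcript is therefore the second base of the usual tRNA numbering, and position 8 of the transcript is the usual position 9. Of the 1271 possible sequences, 13 also occur in other mouse transcripts, and the longest of these is 16 nt.

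PANDORA-seq libraries held 54926347 to 105876141 reads and traditional-seq libraries 9370669 to 17053412 reads. Levels are given in RPM, the reads-per-million scale, over all reads of the library. Reads ran to 45 nt in PANDORA-seq and to 42 nt in traditional-seq, so the whole tRNA of 70 nt could not be read in either and fragments of 43 to 45 nt were seen in PANDORA-seq alone. The brain miRNAs mmu-miR-9-5p and mmu-miR-128-3p were found in all libraries, with medians of 1575 and 1698 RPM in PANDORA-seq and 30221 and 21392 RPM in traditional-seq. Of the other neuronal miRNAs planned, mmu-miR-138-5p had medians of 3.16 RPM in PANDORA-seq and 31.1 RPM in traditional-seq, and mmu-miR-124-3p had no reference sequence. The gut and kidney miRNA mmu-miR-192-5p had medians of 1.15 and 46.7 RPM. The errors below are the spread between libraries, and the reads behind a share are given where they are few.

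A fragment was assigned to the 5′ part where it started at position 1, to the 3′ part where it ended at one of positions 67 to 70, and to the middle otherwise. The most abundant sequence of the main classes is shown here as an example, and each is only a part of the fragments of its class. Capitals mark the bases of CCA in the 3′ fragments, the anticodon (positions 30 to 32) in the middle fragments, and the bases in front of position 1 in the last.
PANDORA-seq 3′ part, 15 to 40 nt (positions 32 to 68): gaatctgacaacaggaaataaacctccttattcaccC
PANDORA-seq 3′ part, 43 to 45 nt (positions 25 to 69): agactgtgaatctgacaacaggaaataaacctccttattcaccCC
PANDORA-seq middle, 15 to 40 nt (positions 25 to 59): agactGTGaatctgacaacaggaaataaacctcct
Traditional-seq middle, 15 to 40 nt (positions 16 to 32): aaaaacattagactGTG
PANDORA-seq, G in front of position 1, 15 to 40 nt (ends at position 30): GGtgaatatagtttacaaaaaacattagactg

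RPM is a share of all reads, whose make-up differs between the protocols, so it does not give the amount of RNA. At 15 to 40 nt, mt-Th fragments made up a smaller share of the reads in PANDORA-seq than in traditional-seq. Their level was 806 ± 428 RPM (SD, n = 16) in PANDORA-seq, with a lowest library of 258, a median of 667 and a highest of 1511 RPM. In traditional-seq it was 3466 ± 839 RPM (SD, n = 14), with a lowest library of 2276, a median of 3191 and a highest of 5048 RPM. No library of either protocol fell within the range of the other. The difference was -2.27 on the log2(RPM + 1) scale, with p = 1e-05 in a two-sided permutation test over libraries. This is the lowest value that 100000 shuffles allow, and the Benjamini-Hochberg adjusted p over the 8 measures compared was 1.33e-05. The other differences between protocols were tested in the same way. Codes in the file names give 14 pairs of a PANDORA-seq and a traditional-seq library, which may share a mouse, and with these pairs the difference was -2.18 (exact permutation p = 0.000122 over sign flips, adjusted p = 0.000195). Among the 22 mitochondrial tRNAs, 15 were lower and 4 higher in PANDORA-seq in the same test, with a median log2 difference of -2.39, and mt-Th ranked 11 of 22 from the highest.

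The protocols returned different pieces of the tRNA. In PANDORA-seq the 3′ part made up 59.6% ± 16.004 of the fragments of 15 to 40 nt (SD, n = 16), between 24.2% and 76.5% in single libraries. In traditional-seq it made up 0.541% ± 0.396 (SD, n = 14), between 0.200% and 1.71%, and no library of one protocol reached the other. The difference was 59.0 percentage points (permutation p = 1e-05, adjusted p = 1.33e-05). Nearly all the other fragments were middle pieces, which made up 40.4% ± 15.997 of the total in PANDORA-seq, against 99.1% ± 0.681 in traditional-seq. Over distinct sequences, each counted once whatever its reads, the difference in the 3′ part share was 4.37 percentage points.

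Starts in PANDORA-seq clustered in the anticodon loop. Position 32 was the most frequent start, with 25.5% ± 9.20 of the fragments (SD, n = 16), followed by position 33 with 18.2% ± 8.44 and position 31 with 16.8% ± 9.14, and the order of these positions was within their spread. Starts within the loop (positions 28 to 34) made up 69.8% ± 15.95 in PANDORA-seq, against 7.06% ± 2.62 in traditional-seq (permutation p = 1e-05, adjusted p = 1.33e-05). The lowest PANDORA-seq library, with 30.7%, lay above the highest traditional-seq library, with 11.5%. Over distinct sequences this difference was 4.49 percentage points. Ends in PANDORA-seq lay at position 68 in 36.7% ± 10.9 and at position 69 in 19.2% ± 9.61 of the fragments.

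Among exact matches in traditional-seq the most frequent starts lay before the loop and the most frequent end within it. On average most of these fragments ended elsewhere. Position 25, in the anticodon stem, was the most frequent start among them with 21.3% ± 5.41 (SD, n = 14), and position 16 followed with 10.5% ± 3.65. Position 32, the last base of the anticodon, was the most frequent end with 33.2% ± 13.96, followed by position 43 with 13.5% ± 3.81 and position 37 with 9.09% ± 3.90. Ends within the anticodon loop made up 35.1% ± 14.3 in traditional-seq and 0.131% ± 0.0559 in PANDORA-seq. Exact matches were also shorter in traditional-seq, with a mean length of 22.7 ± 2.26 nt against 35.8 ± 0.286 nt in PANDORA-seq. With a mismatch allowed, 88.1% ± 1.70 of traditional-seq reads over position 8 carried another base there, against 19.2% ± 11.7 in PANDORA-seq. The exact match leaves those reads out, and all of them start at or before that position. The order of starts and the mean length therefore hold for exact matches alone.

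**Figure D1:**
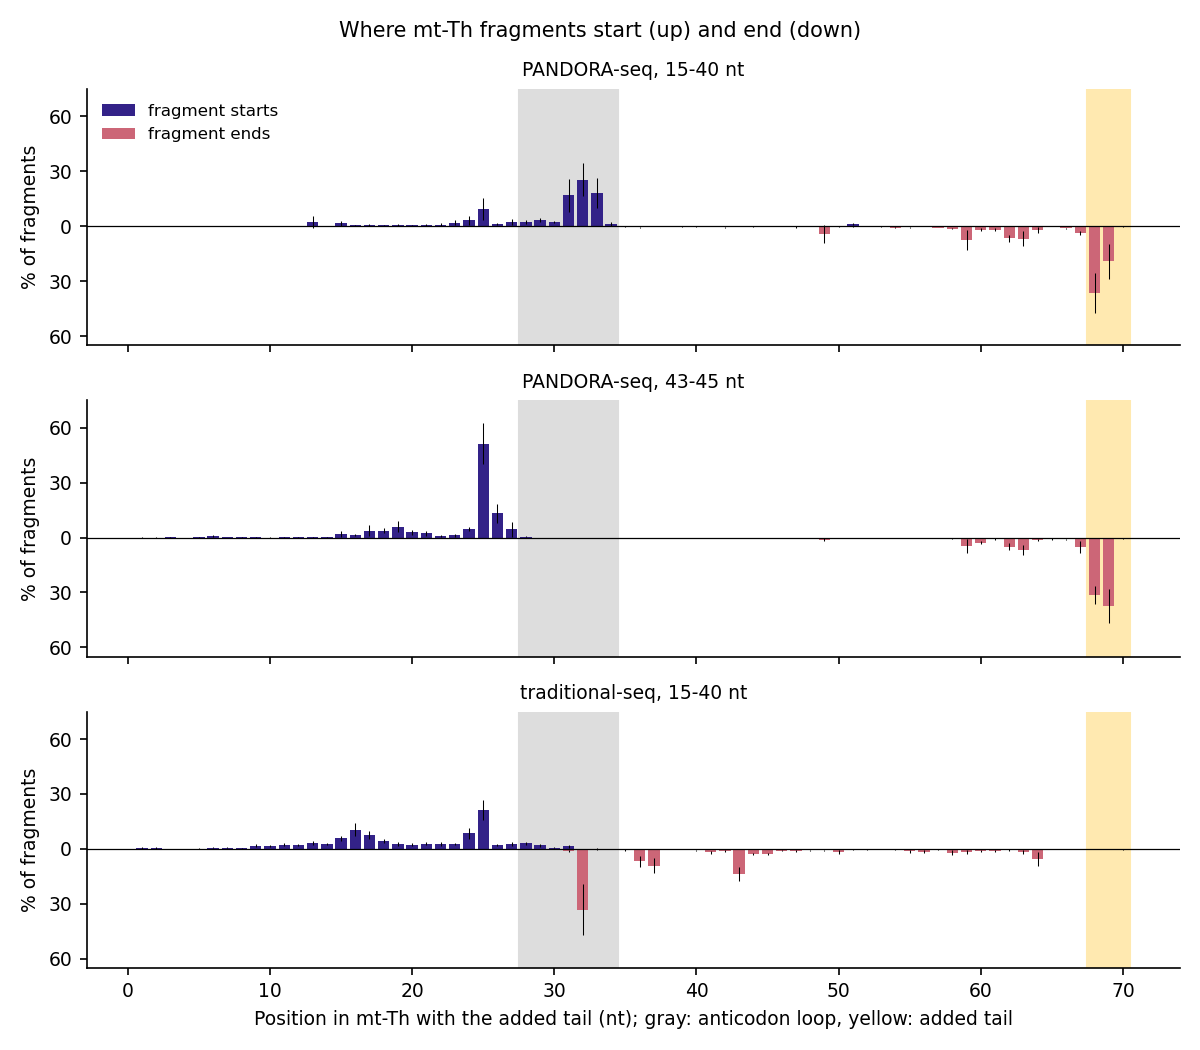
Share of mt-Th fragments that start (upward bars) or end (downward bars) at each position of the transcript with its tail, as the mean over libraries with SD, for PANDORA-seq at 15 to 40 nt and 43 to 45 nt (16 libraries) and traditional-seq at 15 to 40 nt (14 libraries). PANDORA-seq starts stand at positions 31 to 33 at 15 to 40 nt and at position 25 at 43 to 45 nt, both with ends at positions 68 and 69, and traditional-seq ends stand at position 32.

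Of the single sequences shown above, those of positions 32 to 68 and of positions 16 to 32 followed this pattern. The PANDORA-seq middle sequence of positions 25 to 59, with 34.2 ± 39.2 RPM, did not, since it started before the loop. The fragment of positions 32 to 68 reached 121.5 ± 92.2 RPM in PANDORA-seq (SD, n = 16), between 32.0 and 333 RPM. The traditional-seq fragment of positions 16 to 32 reached 288 ± 160 RPM (SD, n = 14), between 76.5 and 601 RPM. The leading 3′ fragment of traditional-seq, which covers positions 31 to 67 and carries none of CCA, had 3.57 ± 3.39 RPM (SD, n = 14).

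Fragments of 43 to 45 nt in PANDORA-seq began further upstream and ended at the same places. With ends at position 68 or 69 these lengths leave only starts close to position 25, so their start further upstream was fixed by the length range. Position 25 was the start of 51.4% ± 11.4 of them (SD, n = 16) and position 26 of 13.2% ± 5.11. Their ends were at position 69 in 37.5% ± 9.23 and at position 68 in 31.1% ± 4.93, and the order of these ends was within their spread. Their 3′ part share was 74.3% ± 6.42, between 64.2% and 89.7%. Among exact matches, position 25 was the most frequent start in traditional-seq too. Those fragments ended at other places, and the start of the long PANDORA-seq fragments was bound to their ends, so no common cut is read from it.

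The 3′ ends of the tRNA differed between the protocols. Among PANDORA-seq fragments of 15 to 40 nt that ended at positions 67 to 70, 62.1% ± 9.59 carried 1 base of CCA (SD, n = 16), 31.4% ± 9.93 carried 2 and 6.36% ± 1.75 carried none. The complete CCA was present on 0.188% ± 0.0769 of them, between 0.102% and 0.366% in single libraries. In traditional-seq it was present on 49.8% ± 18.3 (SD, n = 14), between 21.1% and 85.3%. The ranges of the protocols did not meet (permutation p = 1e-05, adjusted p = 1.33e-05). Over distinct sequences the difference was -30.1 in place of -49.6 percentage points. The traditional-seq shares rest on 70 to 476 reads a library and the PANDORA-seq shares on 7672 to 92876. The long PANDORA-seq fragments carried the complete CCA on 0.633% ± 0.458, 2 of its bases on 50.1% ± 9.86, 1 base on 42.1% ± 6.98 and none on 7.18% ± 4.71, which was 4.29% ± 1.03 in WT and 10.1% ± 5.24 in AD libraries. T4PNK and AlkB were always used together, so their parts in this and the other differences between protocols cannot be told apart. The protocols also differed in reads per library and in the longest read, and these cannot be told apart from the enzymes either.

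**Figure D2:**
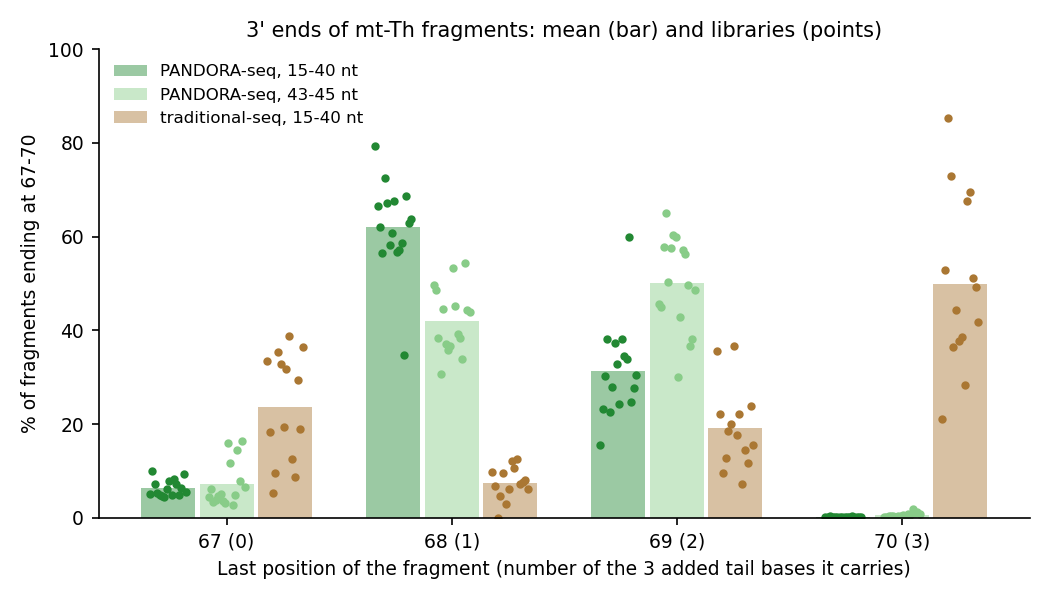
Share of the mt-Th fragments ending at positions 67 to 70 that end at each of these positions, with the number of the 3 tail bases they carry in brackets (bars, mean; points, libraries). PANDORA-seq fragments end mostly at positions 68 and 69, with 2.82% to 16.4% at position 67 and at most 1.92% at position 70, and traditional-seq libraries reach 21.1% to 85.3% there.

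Fragments that start exactly at position 1 were rare. They made up 0.0243% ± 0.0180 of the PANDORA-seq fragments of 15 to 40 nt (SD, n = 16) and 0.349% ± 0.416 of those in traditional-seq (SD, n = 14), a difference that passed the test (permutation p = 1e-05, adjusted p = 1.33e-05) although the libraries overlapped. Over distinct sequences it had the other sign, with 0.245 percentage points more in PANDORA-seq (adjusted p = 0.011). With reads of 1 mismatch included the difference was -2.65 percentage points. With the parts divided by whether a fragment's midpoint lay before the anticodon, it was -48.96 percentage points, so the low share holds for fragments that start at the first base. AD PANDORA-seq library 3 had 0 of 14551 reads, which allows a share of up to 0.0206%. Reads with G in front of position 1 do not match the transcript and are not among the fragments counted above, so they were counted apart.

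In PANDORA-seq the 5′ end of the tRNA was read almost always with G in front of position 1. Of all reads that started at position 1 or with 1 or 2 G in front of it, 99.7% ± 0.259 carried G in PANDORA-seq (SD, n = 16) and 40.7% ± 10.02 in traditional-seq (SD, n = 14). The lowest PANDORA-seq library had 99.1% and the highest traditional-seq library 65.5%, without overlap (permutation p = 1e-05, adjusted p = 1.33e-05). Over distinct sequences the difference was 11.4 percentage points in place of 59.0. Mostly 2 G were present, on 96.4% ± 2.37 of these reads in PANDORA-seq and on 28.4% ± 11.5 in traditional-seq. The level of reads with 2 G was 71.8 ± 71.5 RPM in PANDORA-seq, against 5.49 ± 6.13 RPM in traditional-seq. These shares and levels count reads without a mismatch. Of reads with G that covered position 8, 91.1% ± 2.36 carried another base there in traditional-seq and 14.3% ± 6.93 in PANDORA-seq. Mismatches included, such reads numbered 1364 ± 1557 in a traditional-seq library and 7994 ± 7346 in a PANDORA-seq library. Traditional-seq libraries held far fewer reads in all, so the gap in level depends on the exact match. The sequence with 2 G that ends at position 30 alone had 58.5 ± 65.6 RPM in PANDORA-seq.

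No genome sequence was used here, so whether the inner G is encoded between the genes or added to the tRNA was not tested. The outer G differed from the base of the neighbouring gene at its place, since the transcript of mt-Nd4 ends in T at 11544. In the pairing described above, 2 G in front of position 1 gave 8 consecutive pairs, with the last base before CCA included. Reads that ran into mt-Th from mt-Nd4 numbered 0 to 10 in a PANDORA-seq library and 0 or 1 in a traditional-seq library. Reads that ran on into mt-Ts2 numbered 0 to 61 and 0 to 7. Traditional-seq 5′ end reads numbered 15 to 953 a library, so their shares are less precise than those of PANDORA-seq, with 554 to 21548.

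Position 8 of the transcript, an A, was read as another base far more often than its neighbours. Over reads of 15 to 40 nt with at most 1 mismatch, 88.1% ± 1.70 of the traditional-seq reads that covered it carried another base (SD, n = 14), between 83.3% and 90.1%. In PANDORA-seq the share was 19.2% ± 11.7 (SD, n = 16), and the highest library had 44.7%. The libraries did not overlap, and the difference was -68.9 percentage points (permutation p = 1e-05, adjusted p = 1.14e-05), at a position chosen after the values were seen. WT PANDORA-seq library 3 had 0 of 167 reads, which allows a share of up to 1.80%. The reads over position 8 numbered 58 to 1143 in a PANDORA-seq library and 2837 to 36167 in a traditional-seq library.

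Among the reads with G in front of position 1 that covered position 8, the shares ran from 1.71% to 30.5% in PANDORA-seq and from 86.0% to 95.0% in traditional-seq. The base read in place of A was mostly T or G. In traditional-seq T was read in 49.4% to 55.3% of the reads over the position and G in 29.9% to 35.9%. The most abundant sequence with such a change in traditional-seq is shown because the exact match leaves it out, and the capital marks the changed base, A8T counted from position 1.
Traditional-seq, mismatch at position 8 (positions 2 to 32): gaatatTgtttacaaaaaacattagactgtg
It had 207 ± 244 RPM in traditional-seq (SD, n = 14), between 23.3 and 827 RPM. Reads with 1 mismatch came to 1923 ± 937 RPM in traditional-seq and 84.3 ± 42.3 RPM in PANDORA-seq.

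The next base, position 9 of the transcript, differed little. A mismatch was seen there in 3.67% ± 1.15 of PANDORA-seq reads (SD, n = 16) and 2.12% ± 0.628 of traditional-seq reads (SD, n = 14), with overlapping libraries (permutation p = 0.0001, adjusted p = 0.000114). This difference no longer passed the threshold over sequences with at least 2 reads in the library (adjusted p = 0.216). Across all 70 positions the median share was 0.280% in PANDORA-seq, against 0.373% in traditional-seq. Reads with another base in the added tail were classed apart, so the share at positions 68 to 70 was fixed at 0 and not measured. Position 8 was the single position over 5% in PANDORA-seq, and traditional-seq had 4 such positions, of which position 64 was the second highest with 8.61% ± 3.69.

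**Figure D3:**
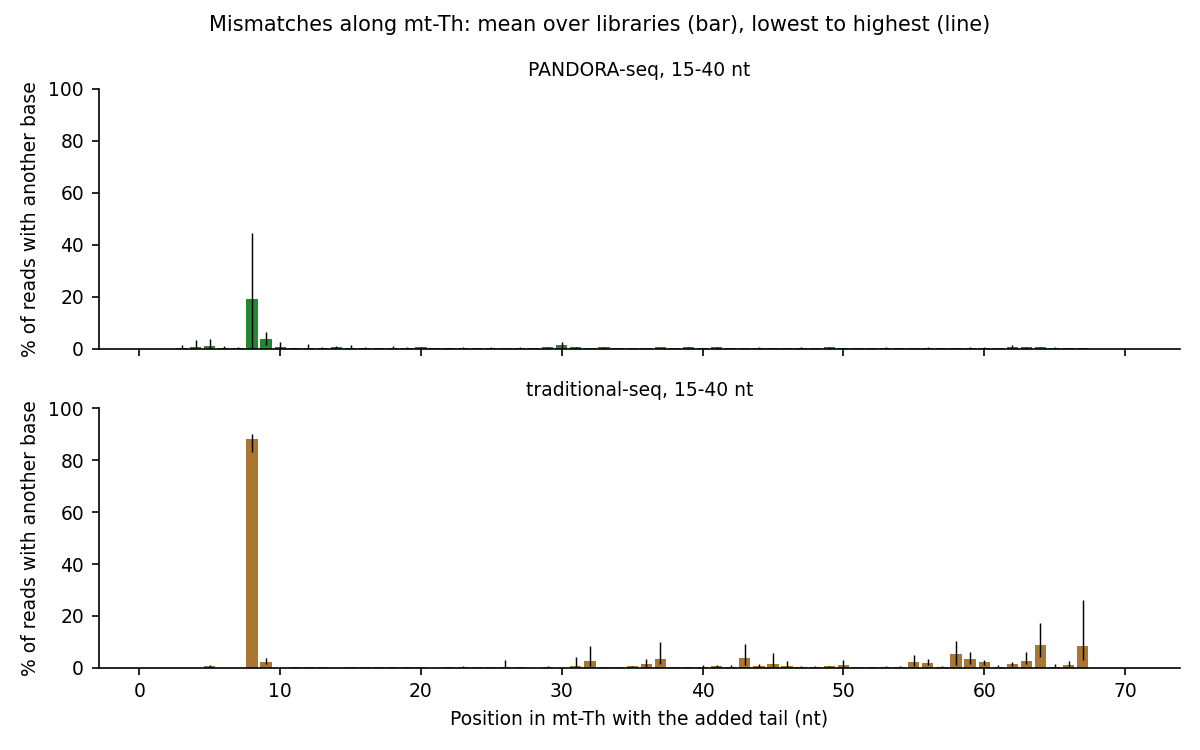
Share of reads of 15 to 40 nt with at most 1 mismatch that carry another base at each position of mt-Th with its tail (bars, mean over libraries; lines, lowest to highest library). Position 8 stands at 88.1% in traditional-seq and at 19.2% in PANDORA-seq. The tail positions 68 to 70 are 0 by the way reads were classed.

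Compared with the other mitochondrial tRNAs, mt-Th was among the most abundant sources of fragments. Per 100 nt of tRNA, its fragments of 15 to 40 nt had 1152 RPM in PANDORA-seq, rank 4 of 22 after mt-Ts2, mt-Te and mt-Tg. In traditional-seq they had 4951 RPM per 100 nt, rank 2 after mt-Ts2, the tRNA encoded next to it. At 43 to 45 nt mt-Th was at rank 1 in WT libraries, with 1490 RPM per 100 nt against 1245 for mt-Tg, and at rank 2 in AD libraries, with 69.6 against 166 for mt-Tg. In either genotype these levels were within their spread. Of all mitochondrial tRNA fragments of 15 to 40 nt, mt-Th gave 4.57% ± 1.30 in PANDORA-seq, against 7.27% ± 1.99 in traditional-seq, with overlapping libraries (permutation p = 0.00015, adjusted p = 0.00015). With reads of 1 mismatch included for mt-Th alone, the difference went from -2.70 to -5.72 percentage points. Reads of the other tRNAs with a mismatch were not collected. At 43 to 45 nt this share was 38.6% ± 8.24 in WT and 21.9% ± 7.63 in AD libraries of PANDORA-seq (SD, n = 8 each), with overlap.

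Over the PANDORA-seq libraries the tRNAs whose 15 to 40 nt level followed that of mt-Th most closely were mt-Te, mt-Tg and mt-Ts2, with Spearman correlations of 0.90, 0.89 and 0.88 over 16 libraries against a median of 0.71 over the other 23 mitochondrial RNAs. In traditional-seq they were mt-Tm, mt-Tp and mt-Te, with 0.65, 0.62 and 0.61 over 14 libraries against a median of 0.49. These values share the library and its total of reads, and are given as a description.

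In traditional-seq no measure of the mt-Th fragments passed the test between AD and WT mice. The level was 3597 ± 879 RPM in WT mice (SD, n = 7), with a lowest library of 2526, a median of 3233 and a highest of 5048 RPM. In AD mice it was 3335 ± 845 RPM (SD, n = 7), with a lowest library of 2276, a median of 3150 and a highest of 4679 RPM. The groups overlapped, and the log2 difference was -0.11 (two-sided exact permutation test over 3432 splits, p = 0.559, adjusted p = 0.966 over 8 measures). The 3′ part share was 0.508% ± 0.263 in WT and 0.575% ± 0.518 in AD mice (p = 0.834, exact permutation test). The complete CCA share was 50.1% ± 22.3 in WT and 49.5% ± 15.1 in AD mice (p = 0.948, exact permutation test). The mismatch share at position 8 was 88.6% ± 0.662 in WT and 87.6% ± 2.30 in AD mice (p = 0.360, exact permutation test). All 8 measures had an adjusted p of 0.966, and of the 22 mitochondrial tRNAs 0 passed at an adjusted or an unadjusted p under 0.05.

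Single sequences of traditional-seq were tested with edgeR's quasi-likelihood test over all distinct sequences, whether they matched a reference or not, and called where the adjusted p was under 0.05 with more than a 2-fold change. Of 258 mt-Th sequences tested, 0 were called lower and 0 higher in AD, and 0 had an unadjusted p under 0.05. The share called among all 24922 sequences tested was 0%. DESeq2 and edgeR's likelihood ratio test also called 0 mt-Th sequences, beside 0% of all sequences by either. The log2 fold changes of the mt-Th sequences ran from -1.05 to 0.84. The fragment of positions 16 to 32 had 319 ± 131 RPM in WT mice and 257 ± 189 RPM in those with AD (SD, n = 7 each), with overlapping libraries.

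In PANDORA-seq, the contrast on which mt-Th was chosen, fragments of 15 to 40 nt and of 43 to 45 nt had different values. At 15 to 40 nt the level was 896 ± 458 RPM in WT mice (SD, n = 8), with a lowest library of 258, a median of 811 and a highest of 1511 RPM. In AD mice it was 716 ± 404 RPM (SD, n = 8), with a lowest library of 265, a median of 623 and a highest of 1495 RPM. The groups overlapped over most of their range, and 0 AD libraries lay below every WT library. The ratio of the means, WT over AD, was 1.25. At 41 to 42 nt the level was 156 ± 78.7 RPM in WT and 66.0 ± 35.0 RPM in AD libraries, of which 4 lay below the lowest WT library.

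At 43 to 45 nt the level was 1043 ± 533 RPM in WT mice (SD, n = 8), with a lowest library of 500.2, a median of 906 and a highest of 1897 RPM. In AD mice it was 48.7 ± 39.3 RPM (SD, n = 8), with a lowest library of 8.32, a median of 42.7 and a highest of 130 RPM. Each of the 8 AD libraries was below the lowest WT library, and the ratio of the means was 21.4. Among the 22 mitochondrial tRNAs this was the lowest log2 ratio of AD to WT at these lengths, -4.42, against a median of -2.78. Only mt-Th and mt-Tn had groups that did not overlap, and mt-Tn was close to the floor, with 0.642 ± 0.395 RPM in WT and 0.0339 ± 0.0354 RPM in AD libraries. The rank of mt-Th and its lack of overlap come from the contrast on which it was chosen, so nothing is read from them. Fewer cells with the RNA and less RNA per cell cannot be told apart in these bulk samples. Neither can be told apart from the lower share of all reads of these lengths in AD libraries, which is given below.

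**Figure D4:**
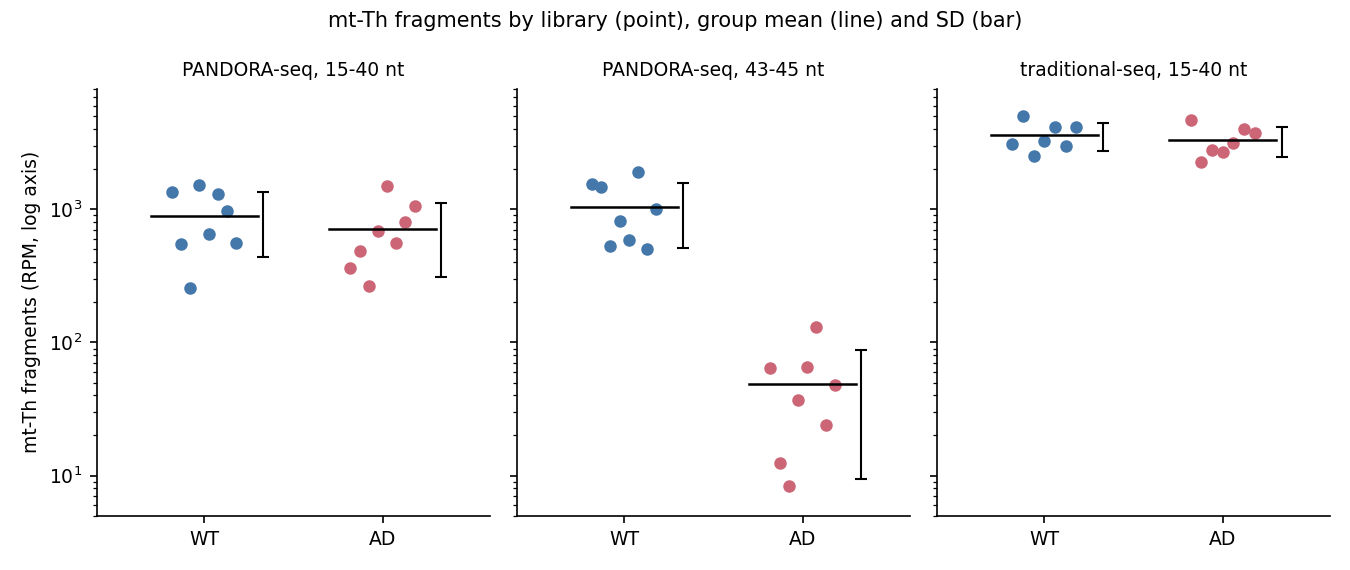
Level of mt-Th fragments in each library (points, RPM on a log axis) by genotype, with the mean (line) and SD (bar), for PANDORA-seq at 15 to 40 nt and 43 to 45 nt and traditional-seq at 15 to 40 nt. The genotypes overlap in the left and right panels, and in the middle panel the WT libraries lie at 500.2 to 1897 RPM and the AD libraries at 8.32 to 130 RPM.

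All reads of 43 to 45 nt, of whatever origin, moved in the same direction. They made up 11.2% to 21.5% of a WT library and 2.13% to 10.7% of an AD library. Relative to these reads alone, mt-Th fragments had 6494 ± 2313 RPM in WT and 889 ± 338 RPM in AD libraries (SD, n = 8 each), from 3286 to 9118 in WT and from 391 to 1343 in AD libraries. The ratio of the means on this scale was 7.30, against 21.4 over all reads. All reads of 15 to 40 nt made up 78.2% ± 3.75 of a WT and 89.7% ± 3.87 of an AD library. Relative to those reads, mt-Th fragments of 15 to 40 nt had 1152 ± 602 RPM in WT and 802 ± 459 RPM in AD libraries. Their ratio of the means was 1.44, against 1.25 over all reads, and 1 AD library lay below every WT library. The part of the library's length profile in the mt-Th values was not tested.

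The ratio between the genotypes varied without order at shorter lengths and fell with each base from 38 nt on. Its log2 of AD to WT was -0.83 at 15 nt, 0.12 at 35 nt, -0.82 at 36 nt and -0.41 at 37 nt. At 38 nt the mean level was 159 RPM in both genotypes, with a log2 ratio of AD to WT of 0.0037. It was -0.65 at 40 nt, -0.93 at 41 nt, -1.52 at 42 nt and -2.86 at 43 nt. At 44 nt the level was 382 ± 208 RPM in WT and 17.9 ± 17.4 RPM in AD mice, a log2 ratio of -4.42. At 45 nt, the longest reads, it was 527 ± 262 RPM in WT and 12.2 ± 9.74 RPM in AD mice, a log2 ratio of -5.43. For all reads of the library the log2 ratio was -0.08 at 41 nt, -1.03 at 43 nt, -1.91 at 44 nt and -1.92 at 45 nt. In traditional-seq the log2 ratio for mt-Th was -1.01 at 41 nt and -0.82 at 42 nt, where 0 AD libraries lay below every WT library, and for all reads it was -0.48 and -0.76.

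**Figure D5:**
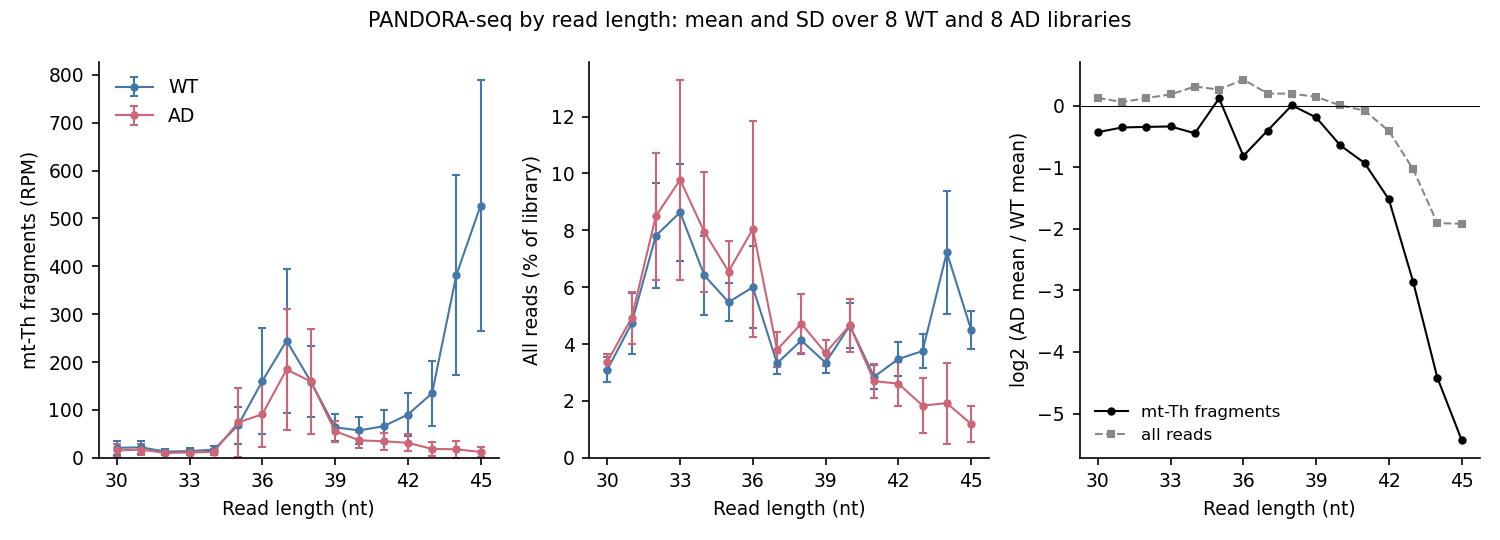
PANDORA-seq values at each read length from 30 to 45 nt: level of mt-Th fragments in RPM (left), share of all reads of the library (middle), both as mean and SD over 8 WT and 8 AD libraries, and log2 ratio of the AD to the WT mean for both (right). For mt-Th the ratio falls from 0.0037 at 38 nt to -5.43 at 45 nt, and for all reads it reaches -1.92.

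The 3′ part and the middle showed this difference between the length ranges. The 5′ part was too rare to compare, with 0.207 ± 0.118 RPM in WT and 0.0192 ± 0.0330 RPM in AD libraries at 43 to 45 nt. The 3′ part at 43 to 45 nt had a WT over AD ratio of 22.03 and the middle one of 19.8, while at 15 to 40 nt the ratios were 1.29 and 1.19. The fragment of positions 25 to 69 had 346 ± 172 RPM in WT mice, from 176 to 689 RPM. In AD mice it had 7.95 ± 5.98 RPM, from 1.85 to 19.7 RPM. The fragment of positions 32 to 68 had 156 ± 108 RPM in WT and 86.9 ± 60.8 RPM in AD libraries, which overlapped. Reads with 2 G in front of position 1, which do not match the transcript, had 127 ± 67.3 RPM in WT and 9.05 ± 12.9 RPM in AD mice at 43 to 45 nt. AD library 6 had 40.05 RPM and the others 1.03 to 9.58 RPM, and without it the AD mean was 4.62 ± 3.22 RPM and the WT over AD ratio 27.5 in place of 14.1. At 15 to 40 nt they had 80.7 ± 83.3 RPM in WT and 62.9 ± 61.9 RPM in AD mice, a ratio of 1.28 that was 0.857 without WT library 4 and 1.86 without AD library 5.

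At 43 to 45 nt position 25 was the most frequent start in both genotypes. Position 69 was the end of 42.2% ± 7.75 in WT against 30.5% ± 5.30 for position 68, while in AD mice position 69, with 32.8% ± 8.49, and position 68, with 31.8% ± 4.81, were within their spread. The share of starts at position 25 was 57.5% ± 8.51 in WT and 45.2% ± 10.9 in AD mice (SD, n = 8 each). The mean length at 43 to 45 nt was 44.4 ± 0.0440 nt in WT and 43.9 ± 0.262 nt in AD mice. With a start at position 25, ends at positions 67, 68 and 69 are lengths of 43, 44 and 45 nt. These differences in starts and ends therefore cannot be told apart from the fall with length. The 3′ part share was 76.2% ± 7.43 in WT and 72.4% ± 4.997 in AD mice at 43 to 45 nt. At 15 to 40 nt it was 60.6% ± 12.1 and 58.6% ± 20.004, and AD libraries 1 and 7 had the 2 lowest values of the 16, 34.8% and 24.2%. Starts within the anticodon loop made up 71.6% ± 11.9 and 67.9% ± 19.9 of the fragments of 15 to 40 nt. The complete CCA was on 0.327% ± 0.115 of the 3′ fragments of 43 to 45 nt in WT and on 0.940% ± 0.471 in AD mice, with overlapping libraries.

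By edgeR's quasi-likelihood test over all distinct PANDORA-seq sequences, 44 of 330 mt-Th sequences tested were called lower and 0 higher in AD, beside 1.88% of all 188718 sequences called lower. At 43 to 45 nt 40 of 45 mt-Th sequences were called lower, beside 19.7% of the 17537 sequences of these lengths. At 15 to 40 nt 4 of 249 were, beside 0.0271% of 155036, and 1 was, beside 0.00258% of the same number, when sequences of these lengths were fitted alone. Other fits over all lengths called 56 mt-Th sequences lower by the likelihood ratio test, beside 3.22% of all sequences, and 59 by DESeq2, beside 3.55%. They called 76 with a looser filter on low counts, beside 3.02%, and 48 in a fit blocked by replicate number, beside 2.64%. The gene was chosen by these calls, so that their excess over all sequences was fixed by the choice and nothing is read from it. With starts at position 25, the log2 fold change of the fragments ending at positions 67, 68 and 69, of 43, 44 and 45 nt, was -2.73, -4.60 and -5.51. The 4 called sequences of 15 to 40 nt covered positions 22 to 36, 25 to 42, 25 to 43 and 26 to 42.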

How the data were processed

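Small RNA of 15 to 50 nt from cortex was sequenced by PANDORA-seq or traditional-seq. The deposited files hold, per library, each distinct sequence with its raw read count, which the authors made by removing adapters, with no further scaling. Their notes name the build mm39, and alignments were not used here. From these counts, sequences were matched exactly to mt-Th (GENCODE M21, GRCm38), and RPM used all reads of a library. The tRNA, miRNA and neighbouring sequences came from the same GENCODE and RefSeq tables, and 10 of 16 marker miRNAs were matched. Groups followed the labels, and the study counts as many mice as libraries in each group and protocol. Whether both protocols used the same mice is not stated, and pairs by file-name code were an alternative. The members, gene lists and tests were chosen with earlier results of these data known, and named sequences were the most abundant of each part, protocol and length range.

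Shares and log2(RPM + 1) were compared by permutation over libraries (100000 shuffles between protocols, all 3432 splits between genotypes in traditional-seq, where the smallest p is 0.000583), two-sided, with Benjamini-Hochberg adjustment. Single sequences were tested with edgeR 4.0.16 (filterByExpr with a minimum count of 10, TMM, quasi-likelihood test) in R 4.3.3, with DESeq2 1.42.0 as an alternative, and the rest was computed in Python 3.11.15. In a test on simulated counts, in which 200 sequences differed 16-fold, the fit called 155 of the 155 it tested in the traditional-seq comparison and 146 of 146 in the PANDORA-seq comparison. All simulated sequences had the same spread between libraries, so this does not show how often a smaller change would be called. Intervals, and limits of 3 counts for shares of 0, cover counting error only, since reads carry no molecular identifiers. Libraries of the genotypes share replicate numbers but no source says that these mark pairs, and the check is given with the alternatives.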

Additional observations from a re-analysis of the deposited data

Results flagged for a closer look

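Dixon's test was applied to each group of libraries for the main measures, 44 groups in all, and 7 had a library that stood apart from the others, where chance gives about 1 in 20. Reads of 15 to 40 nt with 2 G in front of position 1 reached 268 RPM in WT PANDORA-seq library 4, against 16.9 to 113 RPM in the other WT libraries. They reached 201 RPM in AD PANDORA-seq library 5, against 8.82 to 95.5 RPM. The same AD library had a mismatch at position 8 in 44.7% of the reads over it, against 10.5% to 19.9% in the others. AD PANDORA-seq library 6 had 130 RPM of mt-Th fragments of 43 to 45 nt, against 8.32 to 65.2 RPM in the other AD libraries, and it was still below the lowest WT library. In traditional-seq, AD library 2 had a 3′ part share of 1.71%, against 0.200% to 0.631%, and 16.4 RPM of reads with 2 G, against 0.469 to 6.83 RPM. AD traditional-seq library 4 had a mismatch at position 9 in 3.87% of the reads, against 1.45% to 2.44%.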

How the results depend on the processing

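Between the protocols, 297 of 301 recomputed values kept their direction and their side of the threshold, among them all 8 with 14 pairs by file-name code (adjusted p 0.000195 to 0.000854). The position 9 mismatch difference fell to 0.537 percentage points over sequences with at least 2 reads, the 5′ part difference turned to 0.245 over distinct sequences, and position 8 in place of position 9, added after seeing the data, gave -68.9, or -73.9 with reads carrying G included. Between genotypes in traditional-seq 0 of 199 values passed the threshold and 23 changed sign. Over distinct sequences these were 0.0153 for the 5′ part, 3.29 for CCA, -0.220 for loop starts, -0.790 for G and -1.10 for position 9, and position 8 gave -0.959 or -1.01 with G. Without 1 library at a time the differences ran from -0.183 to 0.0678 for the 5′ part, -0.122 to 0.143 for the 3′ part, -5.45 to 5.24 for CCA, -0.271 to 0.132 for position 9 and -0.462 to 0.675 for the share of mitochondrial tRNA reads. The cause was not tested.

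In PANDORA-seq the log2(RPM + 1) difference at 43 to 45 nt was -4.71, or -2.89 over reads of the same lengths. The 3′ part difference at 15 to 40 nt, -2.04, ran from -4.61 to 2.87 without 1 library at a time, and was above 0 without AD library 1 (1.35) or AD library 7 (2.87). Reads with 2 G were also computed without each library, an alternative chosen after seeing the data, and the report gives those that moved. The 44 sequences called lower (1.88% of all sequences tested) became 76 with a looser filter on low counts (3.02%) and 36 to 60 without 1 library at a time (1.30% to 4.23%). Of these, 4 were of 15 to 40 nt, and a fit of these lengths alone called 1 (0.0271% and 0.00258% of all). All lengths together, 56 were called lower by edgeR's likelihood ratio test (3.22%) and 59 by DESeq2 (3.55%). With a replicate block 48 were called lower in PANDORA-seq (2.64% of all) and 0 in traditional-seq (0%). Same-numbered deviations correlated between -0.42 and 0.53, and 1 of 7 and 0 of 8 numbers matched themselves best. These values show no pairing by number but cannot exclude it. The block changed no other call. A share from 15 reads, the fewest 5′ end reads of a traditional-seq library, limits that comparison.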
